A study of Mus musculus with 4 samples.

Results

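Growth factor receptor tyrosine kinases were examined in C2C12 cells, a mouse myoblast line, as 10 genes taken by symbol from a table of 51826 gene identifiers: Axl, Pdgfra, Pdgfrb, Fgfr1, Fgfr2, Fgfr3, Fgfr4, Egfr, Erbb2 and Met. All 10 were found in the table. They belong to 58 receptor tyrosine kinase genes listed here, of which the other 48 serve as a setting. The cells received recombinant GDF10 protein or vehicle for 6 h in vitro, with 2 libraries per group, and total RNA was sequenced. GDF10 is a secreted protein of the TGF-β superfamily; its dose is not given in the labels. No genotype or transgene distinguishes the groups. The design text states biological replicates, and nothing further says how the cultures were kept apart. All libraries come from 1 cell line, so p-values measure the spread between cultures of that line.

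A receptor tyrosine kinase spans the cell membrane, binds a growth factor outside the cell and, once paired with a second receptor, phosphorylates tyrosines on itself and on adaptor proteins inside. The signal then passes through RAS and the MAP kinases, and through PI3-kinase and AKT. In myoblasts, FGF and HGF signalling is known for keeping cells in division and out of differentiation. MET is the HGF receptor of muscle stem cells, and FGFR4 is the FGF receptor associated with skeletal muscle.

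Total counts were 29944193 and 35057429 in the GDF10 libraries, against 35597310 and 29641165 in the vehicle libraries. Levels correlated across genes at r of 0.984 within the GDF10 pair and 0.987 within the vehicle pair, against 0.983 to 0.986 across groups. The labels call the cells muscle stem cells, while the extraction protocol names longissimus dorsi, a back muscle. Of 12 myoblast markers, 10 had at least 1 CPM (counts scaled to library size) in all 4 libraries, and Pax7 and Fgfr4 were at 0. Their summed level was 2776 to 2784 CPM in GDF10 libraries and 2713 CPM in both vehicle libraries. Pax7, the defining factor of quiescent muscle stem cells, was thus not detected, whereas Myod1 was at 57.5 and 56.9 CPM in GDF10 libraries and 53.6 and 55.2 CPM in vehicle libraries. Summed markers were 2.50 to 3.10 CPM in GDF10 and 2.37 to 2.60 CPM in vehicle libraries for endothelium (3 of 8 at 0: Tie1, Emcn, Erg). For immune and blood cells they were 9.01 to 9.98 CPM in GDF10 and 8.68 to 9.07 CPM in vehicle libraries (Adgre1, Cd3e and Hbb-bs at 0). For epithelium they were 13.7 to 15.5 CPM in GDF10 and 11.3 to 13.4 CPM in vehicle libraries (3 of 7 at 0: Epcam, Cldn4, Krt5). For glia and nerve they were 4.44 to 7.17 CPM in GDF10 and 6.47 to 6.62 CPM in vehicle libraries (Sox10 at 0, of 6). Fibroblast markers, which include Pdgfra, summed to 7564 to 8172 CPM in GDF10 and 7351 to 7811 CPM in vehicle libraries (Tcf21 at 0, of 10). Mural markers, which include Pdgfrb and are mostly Acta2, summed to 3069 to 3127 CPM in GDF10 and 2928 to 3055 CPM in vehicle libraries (Kcnj8 and Abcc9 at 0, of 8). Adipocyte markers summed to 185 to 202 CPM in GDF10 and 176 to 191 CPM in vehicle libraries (Adipoq at 0, of 6). Since these are bulk samples, fewer cells of a type and less RNA per cell cannot be told apart.

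RefSeq promoters (GRCm38.p6, 250 bases before to 50 after the start) were matched for 8 of the 10 symbols, Fgfr1 and Pdgfrb being the ones without. Those of the gene with the highest level (Axl, chr7:25788684-25788983, minus strand), the gene with the lowest p (Met, chr6:17463707-17464006, plus strand) and the gene without a count (Fgfr4, chr13:55152568-55152867, plus strand) are shown 5′ to 3′. Capitals mark GC boxes, searched as GGGCGG on both strands.
Axl: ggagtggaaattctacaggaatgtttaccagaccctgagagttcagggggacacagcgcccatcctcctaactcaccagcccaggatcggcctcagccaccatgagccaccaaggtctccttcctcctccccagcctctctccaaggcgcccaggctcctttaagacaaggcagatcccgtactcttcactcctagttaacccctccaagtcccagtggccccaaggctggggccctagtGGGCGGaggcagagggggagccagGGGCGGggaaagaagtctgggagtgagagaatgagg
Met: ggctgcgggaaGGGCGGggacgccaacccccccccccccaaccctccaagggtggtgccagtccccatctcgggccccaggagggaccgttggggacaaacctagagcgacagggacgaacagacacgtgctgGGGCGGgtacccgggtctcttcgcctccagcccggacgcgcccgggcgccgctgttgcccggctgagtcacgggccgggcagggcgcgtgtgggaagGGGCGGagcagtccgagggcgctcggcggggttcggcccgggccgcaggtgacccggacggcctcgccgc
Fgfr4: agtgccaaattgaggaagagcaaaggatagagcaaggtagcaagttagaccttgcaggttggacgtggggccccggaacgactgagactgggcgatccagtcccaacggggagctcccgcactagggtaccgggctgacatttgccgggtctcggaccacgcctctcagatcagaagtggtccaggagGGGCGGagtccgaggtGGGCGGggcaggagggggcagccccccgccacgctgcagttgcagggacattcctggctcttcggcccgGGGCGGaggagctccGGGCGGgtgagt
Axl held 2 GC boxes, Met 3 and Fgfr4 4, so the gene without a count carried the most of these 3. The motif occurred in 35.7% of 32851 promoters of the same length. The window of Met had 34 CpG dinucleotides, that of Fgfr4 20 and that of Axl 6, against a median of 7 over all promoters. None of the 3 held the TATA box letters TATAAA, found in 13.6% of promoters. The AP-1 letters TGANTCA occurred once in the window of Met and in neither of the other two, against 7.81% of all promoters. E-box letters (CANNTG), the core bound by MYOD and other bHLH factors, occurred 2 times each in Met and Fgfr4 and not in Axl, against 72.3% of promoters with at least 1. These matches describe letters in the window and do not show binding.

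Levels of different genes were compared as TPM, the length-scaled share of a library, computed from the counts and the merged exon length of each gene. Axl encodes a receptor of the TAM family, whose ligands are GAS6 and protein S. It lies on chromosome 7 at 25757273 to 25788705 on mm10 and was the highest of the 10, at 524 and 597 TPM in GDF10 libraries and 567 and 584 TPM in vehicle libraries. Pdgfrb, which encodes the PDGF receptor typical of pericytes and mesenchymal cells (chromosome 18, 61045150 to 61085061), had 122 and 138 TPM in GDF10 libraries and 126 and 131 TPM in vehicle libraries. Fgfr1, the FGF receptor gene used most widely by mesenchymal cells (chromosome 8, 25513654 to 25575718), had 112 and 118 TPM in GDF10 libraries and 113 and 113 TPM in vehicle libraries. Over all 4 libraries Axl averaged 568 ± 31.6 TPM (SD, n = 4), 4.40 times the mean of Pdgfrb.

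A middle tier of 4 genes followed. In TPM, Erbb2 and Pdgfra overlapped between the groups of libraries, and Met and Egfr did not. Erbb2, the ErbB receptor without a ligand of its own (chromosome 11, 98412470 to 98437716), had 35.3 and 42.4 TPM in GDF10 libraries and 38.1 and 40.4 TPM in vehicle libraries. Met (chromosome 6, 17463800 to 17573980) had 28.5 and 33.5 TPM in GDF10 libraries and 36.1 and 39.1 TPM in vehicle libraries. Its range over the 4 libraries overlapped that of Erbb2, although Erbb2 was higher in each library taken alone and the ranges did not overlap within the GDF10 libraries. Pdgfra, the PDGF receptor typical of fibroblasts and their progenitors (chromosome 5, 75152292 to 75198215), had 16.6 and 18.6 TPM in GDF10 libraries and 18.1 and 18.5 TPM in vehicle libraries. Egfr, the EGF receptor gene (chromosome 11, 16752203 to 16918158), had 9.28 and 10.5 TPM in GDF10 libraries and 11.0 and 12.7 TPM in vehicle libraries. Each of these 7 genes lay above 10 CPM in every library.

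The remaining FGF receptor genes stood far below. Fgfr3, which restrains cartilage growth (chromosome 5, 33721674 to 33737068), had 17 and 46 counts in GDF10 libraries and 39 and 29 counts in vehicle libraries, a mean of 0.409 TPM over the 4. The mean of Egfr was 26.6 times that. Fgfr3 shares 998 exon bases with the antisense gene G630022F23Rik, which had 0 counts in both GDF10 libraries and 2 and 0 counts in vehicle libraries. Fgfr2, the receptor gene of many epithelia (chromosome 7, 130162451 to 133123350), had 8 and 6 counts in GDF10 libraries and 11 and 0 counts in vehicle libraries. It shares 314 exon bases with Ctbp2 on the same strand, which had 1477 and 1877 counts in GDF10 libraries and 1910 and 1616 counts in vehicle libraries, so the source of these few reads is uncertain. Fgfr4 (chromosome 13, 55152640 to 55168759) had no count in any library. A count of 0 allows up to 3 counts per library, so a level below that is not excluded. In CPM this is 0.1 and 0.0861 in GDF10 libraries and 0.0840 and 0.101 in vehicle libraries. Fgfr2 and Fgfr4 are the members below the filter on low counts and were not tested. The order depended on the gene length used: with the longest transcript, Fgfr1 was above Pdgfrb (176 and 103 TPM, means over 4 libraries). With the median coding transcript, Fgfr1 was again above Pdgfrb (146 and 64.0 TPM), and the middle tier ran Met, Pdgfra, Egfr and Erbb2 at 51.4, 30.6, 20.5 and 19.9 TPM. Axl stayed highest and Fgfr4 lowest under all 3 lengths.

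**Figure D1:**
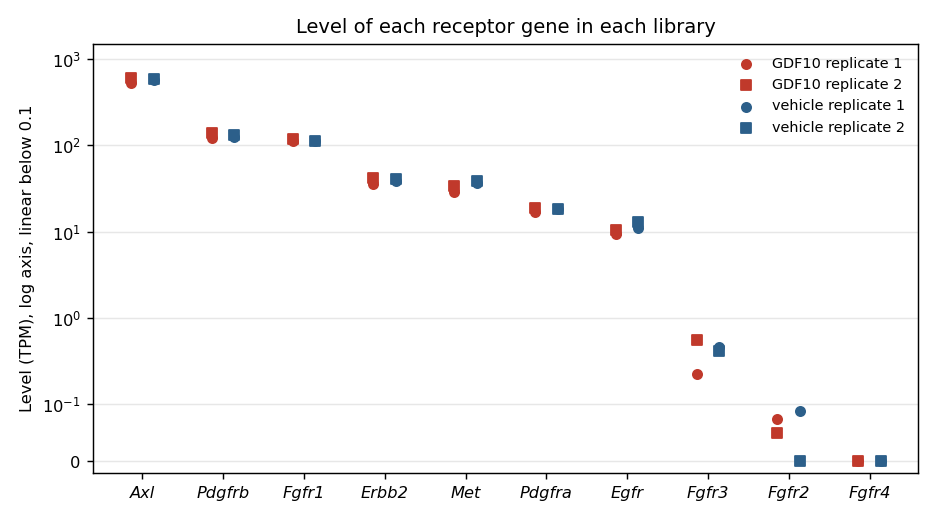
Level of the 10 receptor genes in each library, in TPM on an axis that is logarithmic above 0.1 and linear below; circles are replicate 1, squares replicate 2, GDF10 to the left of vehicle for each gene. Axl lies at 524 to 597 TPM, 3 FGF receptor genes lie under 1 TPM, and Fgfr4 is at 0 in all 4 libraries, its points lying on one another.

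Within families, 1 gene held most of the summed TPM by merged exon length in 4 of 4 cases. Fgfr1 made up 99.7% and 99.5% of the 4 FGF receptor genes in GDF10 libraries and 99.5% and 99.6% in vehicle libraries. Axl made up 97.2% and 97.5% of the TAM genes (Axl, Tyro3, Mertk) in GDF10 libraries and 97.4% and 97.6% in vehicle libraries. Pdgfrb made up 88.0% and 88.1% of the PDGF receptor pair in GDF10 libraries, just above the 87.5% and 87.6% of vehicle libraries. Erbb2 made up 74.7% and 75.7% of the ErbB genes in GDF10 libraries, and 73.4% and 71.8% in vehicle libraries. Egfr made up 19.6% and 18.7% of them in GDF10 libraries, below the 21.15% and 22.7% of vehicle libraries. Erbb3, whose kinase is nearly inactive, took 5.63% and 5.54% in GDF10 libraries and 5.45% and 5.51% in vehicle libraries, and Erbb4 was at 0 in all 4. With the median coding length, the share of Egfr averaged 46.8% in GDF10 libraries and 51.0% in vehicle libraries, and that of Erbb2 49.6% in GDF10 libraries and 45.7% in vehicle libraries. The share of Pdgfrb averaged 68.1% in GDF10 libraries and 67.1% in vehicle libraries by that length, and 83.5% in GDF10 libraries and 82.9% in vehicle libraries by the longest transcript. For Fgfr1 and Axl the lowest share in any library under the 3 lengths was 97.1%, that of Axl. Of 11 shares compared, 6 did not overlap between groups. The shares of a family sum to 100%, so those of Pdgfra and Pdgfrb are 1 difference, and those of Egfr and Erbb2 nearly so. No background was computed for shares, so this count cannot be set against a like figure. In CPM of single genes, a different measure, both GDF10 libraries lay below both vehicle libraries for 19.4% of all genes tested in the series, and above for 18.8%. For each of the 6 shares an exact two-sided permutation test gave p = 0.333 (adjusted p = 0.611), and 0.333 is the smallest p that 2 against 2 libraries can give. The 10 genes together held 60.8% and 61.2% of the summed TPM of all 58 receptor tyrosine kinase genes in GDF10 libraries, and 62.1% and 62.6% in vehicle libraries. That sum includes Ddr2, which had 53.7 and 72.9 TPM in GDF10 libraries and 27.9 and 31.0 TPM in vehicle libraries. How much of the difference in share lies with Ddr2 was not tested.

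**Figure D2:**
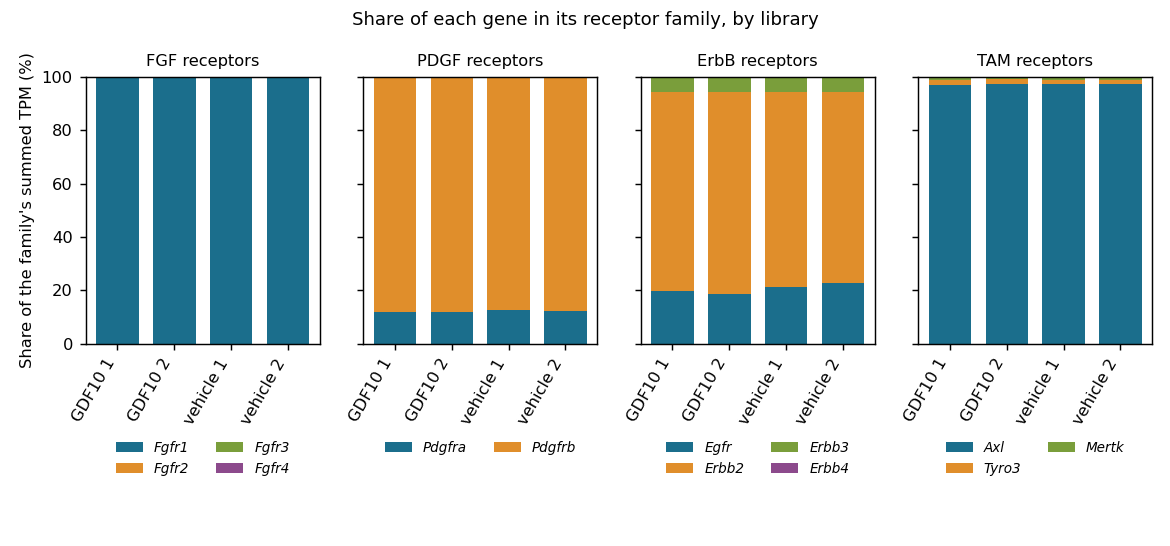
Share of each gene in the summed TPM of its receptor family (y axis, %), with 1 stacked bar per library and GDF10 libraries to the left of vehicle libraries. Fgfr1 and Axl fill nearly the whole of their bars, and the Egfr segment is 18.7% and 19.6% in GDF10 libraries and 21.15% and 22.7% in vehicle libraries.

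The effect of GDF10 was tested with edgeR's quasi-likelihood test across 15467 genes, with Benjamini-Hochberg adjustment over all of them. None of the 8 tested receptor genes passed an adjusted p of 0.05, where 0.162% of all tested genes passed (25 genes). That count was 224 without GDF10 replicate 2, 112 without GDF10 replicate 1 and 44 without vehicle replicate 2. At an unadjusted p of 0.05, 1 of 8 was past the threshold (Met, 12.5%), where 5.94% of all tested genes were. Both GDF10 libraries lay below both vehicle libraries in CPM for 2 of 8, Met and Egfr, which is 25% against 19.4% of all tested genes. Both lay above for 1 of 8, Fgfr1, which is 12.5% against 18.8% of all tested genes. The median log2 fold change was −0.01 over the 8 and 0.00 over all tested genes. DESeq2 and limma-voom also passed none of the 8.

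Met was the member with the lowest p. It had 77.0 and 86.8 CPM in GDF10 libraries and 93.5 and 100 CPM in vehicle libraries. Both GDF10 libraries were below both vehicle libraries, and the higher GDF10 library lay nearer to the lower vehicle library than to the other GDF10 library. The log2 fold change was −0.24 with a standard error of 0.09 and a 95% interval of −0.45 to −0.03 (edgeR, adjusted p = 0.825). Under 16 other settings it ranged between −0.33 and −0.16, with adjusted p between 0.125 and 1; the value nearest 0, −0.16, was without GDF10 replicate 1.

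Egfr showed a difference of like size. It had 37.0 and 40.0 CPM in GDF10 libraries and 41.9 and 48.1 CPM in vehicle libraries. The groups did not overlap, though the libraries on either side of the gap were 40.0 and 41.9 CPM. The log2 fold change was −0.23 with a standard error of 0.11 and an interval of −0.47 to 0.02 (edgeR, adjusted p = 0.825). It was −0.12 without vehicle replicate 2, and between −0.32 and −0.17 with any other library left out. Met and Egfr also had the lowest GC content of the 10 in the longest transcript, 45.5% and 44.4%, against 48.1% to 58.8% for the others. Across 15431 tested genes, the log2 fold change correlated with GC content at a Spearman's rho of 0.256 and with exon length at −0.258, where genes are not independent replicates. By library, deviations from the mean followed exon length at −0.332 in GDF10 replicate 1 and 0.0801 in GDF10 replicate 2. They did so at 0.114 and 0.195 in vehicle libraries. For GC content the values were 0.148 and 0.174 in GDF10 libraries and −0.151 and −0.196 in vehicle libraries. With the GC trend removed, the log2 fold change was −0.21 for Met and −0.18 for Egfr. With the length trend removed it was −0.18 for Met and −0.12 for Egfr. Whether GC content or length was a cause of these differences was not tested.

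The FGF receptor gene with most transcripts, Fgfr1, had 389 and 393 CPM in GDF10 libraries and 376 and 373 CPM in vehicle libraries. Its replicates were close and the groups did not overlap in CPM, though they did in TPM. Its log2 fold change was 0.06 with an interval of −0.09 to 0.22 (edgeR, adjusted p = 0.877), and it was 0.01 with the GC trend removed and 0.15 with the length trend removed. Fgfr3 had 0.567 and 1.32 CPM in GDF10 libraries and 1.09 and 0.980 CPM in vehicle libraries. Its GDF10 libraries enclosed the vehicle libraries. At this depth the interval was wide, −1.17 to 0.93 around a log2 fold change of −0.12 (edgeR, adjusted p = 0.970).

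For Axl the values were 929 and 1013 CPM in GDF10 libraries and 963 and 982 CPM in vehicle libraries. The vehicle libraries lay between the GDF10 libraries. On the log2 scale the fold change was −0.002 with an interval of −0.17 to 0.17 (edgeR, adjusted p = 0.998). Both PDGF receptor genes overlapped between groups. Pdgfrb had 236 and 254 CPM in GDF10 libraries and 234 and 239 CPM in vehicle libraries, with a log2 fold change of 0.05 (interval −0.12 to 0.22; edgeR, adjusted p = 0.909). Pdgfra had 58.7 and 63.0 CPM in GDF10 libraries and 61.0 and 61.8 CPM in vehicle libraries, with a log2 fold change of −0.01 (interval −0.21 to 0.19; edgeR, adjusted p = 0.985). In both, the vehicle libraries were the closer pair. Erbb2 had 64.8 and 74.4 CPM in GDF10 libraries and 67.0 and 70.2 CPM in vehicle libraries, again with the vehicle libraries between the others. Its log2 fold change was 0.02 (interval −0.21 to 0.25; edgeR, adjusted p = 0.977). The signs of Axl, Pdgfra, Pdgfrb, Erbb2 and Fgfr3 turned under at least 1 other setting.

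**Figure D3:**
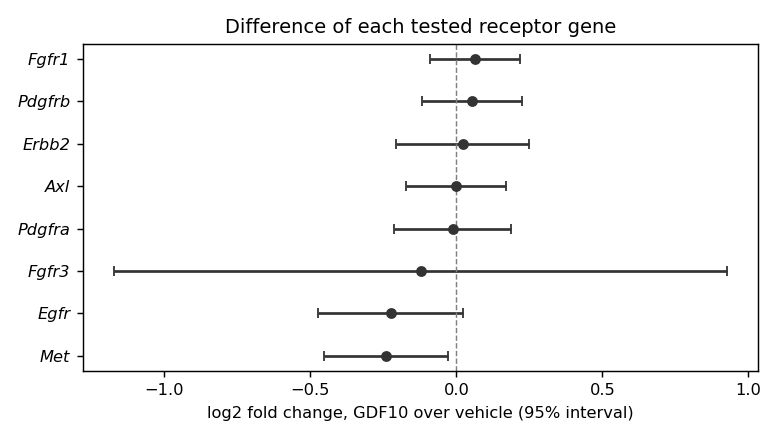
The log2 fold change of GDF10 over vehicle (x axis) for the 8 tested receptor genes; points are edgeR estimates and bars 95% intervals, from 2 libraries per group. The interval of Met ends at −0.03, below 0, and those of the other 7 genes include 0. Fgfr3 has the widest. Intervals are not adjusted for the number of genes tested, and Met did not pass (edgeR, adjusted p = 0.825).

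The genes whose pattern over the 4 libraries lay nearest to that of Met were Zfp318, Zfp266 and Dhx36, at Euclidean distances of 0.00417, 0.0139 and 0.0178 between log2 CPM deviations. They were picked for this likeness, so log2 fold changes near that of Met, −0.24, −0.25 and −0.24, follow from the choice. None of them passed (edgeR, adjusted p = 0.825 for each).

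Ligand genes of these receptors, together with the neuregulin genes, were read as a list of 36. Of the list, 19 were tested and 12 were at 0 in all 4 libraries. None passed an adjusted p of 0.05 with edgeR, DESeq2 or limma-voom, and 3 had an unadjusted p under 0.05, all lower with GDF10 (15.8%, against 3.49% of all tested genes that were lower and 5.94% in either direction). Both GDF10 libraries lay below both vehicle libraries for 7 of 19 (36.8%, against 19.4% of all tested genes) and above for 0. The median log2 fold change was −0.07, against 0.00 over all tested genes. The GC content of those 3 was 39.2% to 42.2%. Btc, Pdgfd and Fgf10, at 37.7%, 39.9% and 41.6%, had log2 fold changes of 0.05, −0.07 and −0.05. Fgf7 and Nrg1, at 38.0% and 42.7%, had −0.16 and −0.18, both without overlap between groups in CPM. Whether GC content was a cause of these differences was not tested.

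Hgf, the ligand of MET, had 12.1 and 13.2 CPM in GDF10 libraries and 18 and 18.2 CPM in vehicle libraries. The groups were well apart and the replicates close. On the log2 scale Hgf was at −0.52 ± 0.12 (standard error; edgeR, adjusted p = 0.6), and over 16 other settings it lay between −0.58 and −0.41 with adjusted p between 0.108 and 1. With the GC trend removed it was −0.41.

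Among EGFR ligands, Ereg (epiregulin) had 23.7 and 29.4 CPM in GDF10 libraries and 30.8 and 38.0 CPM in vehicle libraries. Its log2 fold change was −0.37 with a standard error of 0.15 (edgeR, adjusted p = 0.825). Areg (amphiregulin), at 3 and 3.41 CPM in GDF10 libraries and 3.98 and 4.53 CPM in vehicle libraries, and Egf, at 1.74 and 1.64 CPM in GDF10 libraries and 1.76 and 2.37 CPM in vehicle libraries, also did not overlap. Hbegf, which encodes heparin-binding EGF, had 24.0 and 27.4 CPM in GDF10 libraries and 27.3 and 32.6 CPM in vehicle libraries, a small overlap. Btc (betacellulin) had 4.57 and 4.13 CPM in GDF10 libraries and 3.81 and 4.60 CPM in vehicle libraries. Summed over the 7 EGFR ligands, the level was 41.2 and 49.7 TPM in GDF10 libraries and 51.8 and 62.9 TPM in vehicle libraries. Ereg gave 42.4% of that sum by merged exon length. Of the neuregulins, which bind ERBB3 and ERBB4, Nrg1 had 22.9 and 23.5 CPM in GDF10 libraries and 25.8 and 26.7 CPM in vehicle libraries. Nrg4 had 1.27 and 1.15 CPM in GDF10 libraries and 0.952 and 1.18 CPM in vehicle libraries, and Nrg2 and Nrg3 were at 0.

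Fgf7, known for binding the epithelial form of FGFR2, gave 94.4% of the summed FGF TPM by merged exon length. Ligand shares were not computed with other lengths, and Fgf2 has 6782 merged bases against 535 in its median coding transcript. Fgf7 had 189 and 182 CPM in GDF10 libraries and 203 and 210 CPM in vehicle libraries, without overlap. Its log2 fold change was −0.16 (edgeR, adjusted p = 0.825). Fgf2, which binds FGFR1 among others, had 7.47 and 6.71 CPM in GDF10 libraries and 8.43 and 10.3 CPM in vehicle libraries, with a log2 fold change of −0.40 ± 0.17 (standard error; edgeR, adjusted p = 0.825). The summed FGF level was 175 and 176 TPM in GDF10 libraries and 194 and 207 TPM in vehicle libraries. Fgf5, Fgf10 and Fgf21 were between 0.672 and 1.72 CPM and overlapped between groups. Fgf3, Fgf4, Fgf6, Fgf8, Fgf9, Fgf15, Fgf16, Fgf20 and Fgf23 were at 0 in all 4 libraries.

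The PDGF genes lay close between groups, summing to 126 and 124 TPM in GDF10 libraries and 126 and 125 TPM in vehicle libraries. Pdgfa, whose product binds PDGFRα, gave 66.3% of that sum by merged exon length. It had 90.9 and 86.6 CPM in GDF10 libraries and 88.4 and 86.5 CPM in vehicle libraries (log2 fold change 0.02). Pdgfb had a log2 fold change of 0.04, Pdgfc of 0.12 and Pdgfd of −0.07, none past an unadjusted p of 0.05 with edgeR. Of the ligands of the TAM family, Gas6 was at 0 in all 4 libraries. Pros1, the gene of protein S, had 43.2 and 45.7 CPM in GDF10 libraries and 42.6 and 44.3 CPM in vehicle libraries, overlapping.

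**Figure D4:**
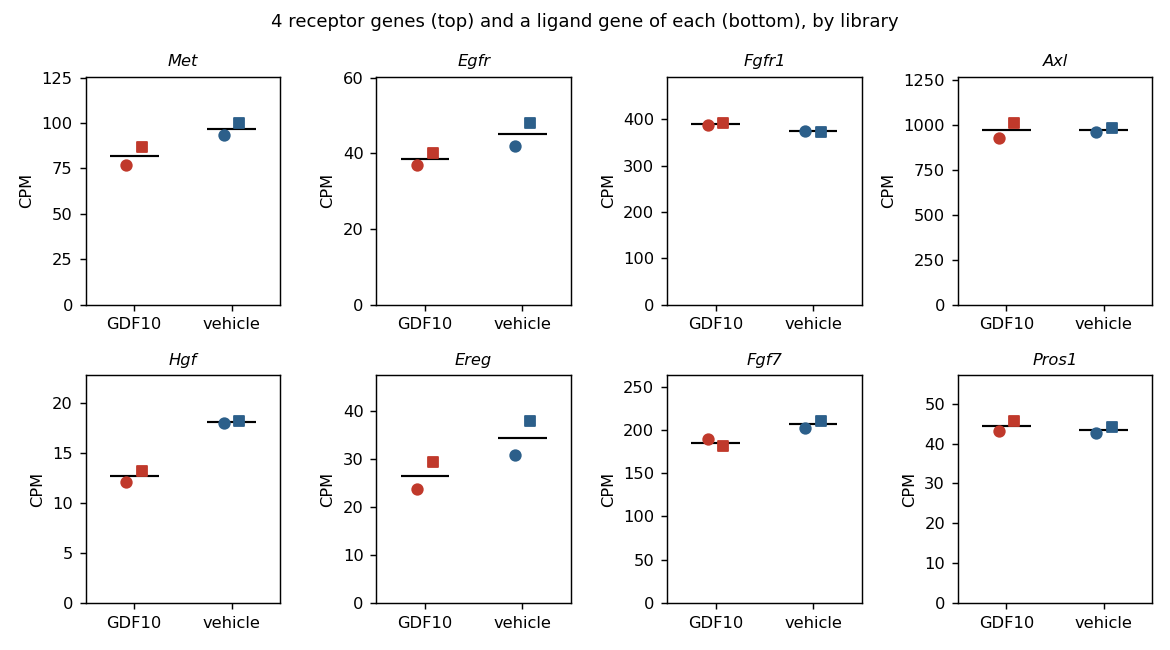
CPM of Met, Egfr, Fgfr1 and Axl (top) and of a ligand gene of each receptor family (bottom: Hgf, Ereg, Fgf7, Pros1). GDF10 is left and vehicle right. Circles are replicate 1, squares replicate 2 and lines the means, each axis starting at 0. Fgf7 is shown under Fgfr1 as the FGF gene with the highest TPM, and is known for binding the epithelial form of FGFR2. Hgf is at 12.1 and 13.2 CPM in GDF10 libraries and 18 and 18.2 CPM in vehicle libraries, while Axl and Pros1 overlap between groups.

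Coreceptors, which hold the ligand near its receptor, were a list of 19, of which 11 were tested and none passed the adjusted threshold with edgeR, DESeq2 or limma-voom. Both GDF10 libraries were below both vehicle libraries for 3 (27.3%, against 19.4% of all tested genes) and above for 0. Nrp1 (neuropilin 1) had 39.3 and 44.0 CPM in GDF10 libraries and 47.5 and 52.9 CPM in vehicle libraries, with a log2 fold change of −0.27 (edgeR, adjusted p = 0.825), the only member of the list with an unadjusted p under 0.05 (9.09%, against 5.94% of all tested genes). Cd44, which presents HGF to MET, had 129 and 157 CPM in GDF10 libraries and 164 and 165 CPM in vehicle libraries. Flrt2, a membrane partner of FGF receptors, had 34.8 and 39.9 CPM in GDF10 libraries and 42.4 and 43.1 CPM in vehicle libraries. The heparan sulfate carriers had the highest TPM of the list: Gpc1 at a mean of 890, Sdc4 at 323 and Sdc1 at 307 TPM, with log2 fold changes of 0.05, −0.01 and −0.04.

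Adaptors and signal transducers were a list of 41, with 38 tested. None passed on all 4 libraries with edgeR, DESeq2 or limma-voom. An unadjusted p under 0.05 was found for 2, which is 5.26% against 5.94% of all tested genes. Pik3ca, the catalytic PI3-kinase gene, had 44.1 and 45.4 CPM in GDF10 libraries and 53.4 and 53.4 CPM in vehicle libraries, with a log2 fold change of −0.26 (edgeR, adjusted p = 0.815). Src had 39.2 and 45.3 CPM in GDF10 libraries and 50.8 and 52.1 CPM in vehicle libraries, with a log2 fold change of −0.28 (edgeR, adjusted p = 0.825). Mapk3, the gene of ERK1, had 96.5 and 106 CPM in GDF10 libraries and 83.4 and 93.9 CPM in vehicle libraries (log2 fold change 0.19). Akt1 and Map2k1, the MEK1 gene, were the highest of the list at means of 298 and 137 TPM, with log2 fold changes of 0.07 and −0.02. Over the list, both GDF10 libraries were below both vehicle libraries for 11 (28.9%, against 19.4%) and above for 13 (34.2%, against 18.8%).

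Inhibitors and genes of receptor turnover were a list of 33, with 32 found and tested and none passing with edgeR, DESeq2 or limma-voom. At an unadjusted p under 0.05 there was 1, Stam (3.12%, against 5.94% of all tested genes). Stam, part of the complex that sorts receptors for degradation, had 39.8 and 43.1 CPM in GDF10 libraries and 47.1 and 50.6 CPM in vehicle libraries (log2 fold change −0.24; edgeR, adjusted p = 0.825). The RAS-inactivating genes Nf1 and Rasa1 had log2 fold changes of −0.21 and −0.18, without overlap between groups. Errfi1, an inhibitor of EGFR, was the highest at a mean of 214 TPM and had 262 and 246 CPM in GDF10 libraries and 260 and 273 CPM in vehicle libraries. Dusp4, a MAP kinase phosphatase, and Hgs, the partner of STAM, had log2 fold changes of −0.07 and 0.14 (edgeR, adjusted p = 0.920 and 0.833). Both GDF10 libraries were below both vehicle libraries for 10 of 32 (31.2%, against 19.4%) and above for 4 (12.5%, against 18.8%).

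Early response targets of these receptors were a list of 19, all tested, with 0 passing by edgeR, DESeq2 or limma-voom and 0 at an unadjusted p under 0.05. Both GDF10 libraries were above both vehicle libraries for 2 (10.5%, against 18.8%), Junb and Jun, and below for 0. Jun, an AP-1 gene, had 929 and 925 CPM in GDF10 libraries and 870 and 870 CPM in vehicle libraries, with a log2 fold change of 0.09. Junb had 180 and 188 CPM in GDF10 libraries and 162 and 171 CPM in vehicle libraries, with a log2 fold change of 0.15 (edgeR, adjusted p = 0.825). Fosl1, Fosl2 and Phlda1 overlapped between groups, with log2 fold changes of −0.10, −0.12 and 0.07.

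Of the other 48 receptor tyrosine kinase genes, 25 were tested, 14 were at 0 in all 4 libraries and none passed in the main edgeR fit. At an unadjusted p under 0.05 there were 2, Ddr2 and Tyro3 (8%, against 5.94% of all tested genes). Ddr2, a collagen receptor, had 175 and 228 CPM in GDF10 libraries and 87.0 and 95.7 CPM in vehicle libraries, both GDF10 libraries far above. Its log2 fold change was 1.14 with a standard error of 0.14 (edgeR, adjusted p = 0.11), and between 0.939 and 1.32 over 16 other settings. On all 4 libraries it passed with DESeq2 (adjusted p = 4.01e-10) and with edgeR and the replicate block (adjusted p = 0.00956). It also passed with the exon length trend removed (limma, adjusted p = 0.0154). It did not pass with limma-voom, other scalings or other filters. Tyro3, the TAM relative of Axl, had 19.3 and 20.7 CPM in GDF10 libraries and 16.7 and 16 CPM in vehicle libraries, with a log2 fold change of 0.29 (edgeR, adjusted p = 0.825). Ephb1 stayed under 0.5 CPM in all libraries. Epha2, Ryk and Ddr1, the highest of these genes per length, averaged 115, 88.8 and 75.6 TPM, so Axl and Pdgfrb were above all other genes of the 58 and Epha2 lay beside Fgfr1, by merged exon length.

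**Figure D5:**
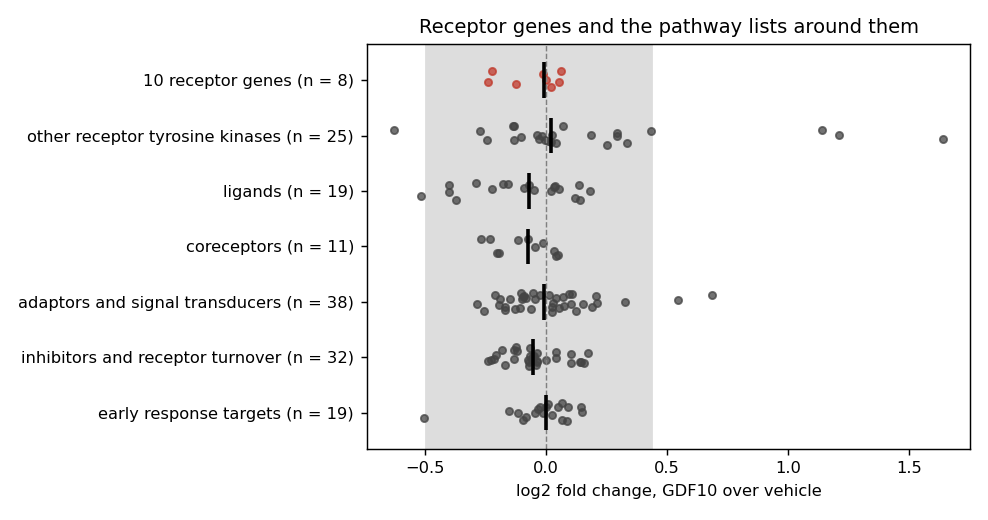
The log2 fold change of GDF10 over vehicle (x axis) for each tested gene (points) of the 10 receptor genes and the 6 lists around them, n being the genes tested; black bars are list medians and the grey band spans the 5th to the 95th percentile of all tested genes, −0.50 to 0.44. The receptor genes lie between −0.24 and 0.06, inside the band, and the 3 points beyond 1 are other receptor genes, Ddr2 at 1.14 among them.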

How the data were processed

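The deposited table holds whole-number counts of reads per gene, not normalized, that the authors made from 4 libraries. HISAT2 2.0, StringTie 1.3.3b, DESeq2 1.12.4, FastQC 0.11.2, bedtools 2.26.0, Trimmomatic 0.36 and build mm10 are named, per the submitters' processing notes. Which tool counted reads, with which annotation and strand setting, is not given in the sources used here, so genes that share exons may have split or shared reads. Of counts from 2 to 21, 65.1% were even, so counting errors may be larger than independent reads give, and floors cover counting error only. Columns were matched to samples by name, Con being read as vehicle.

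Tests used edgeR 4.0.16 under R 4.3.3 (filterByExpr, TMM, robust quasi-likelihood, Benjamini-Hochberg over 15467 genes, threshold 0.05, no covariate); the biological coefficient of variation was 14.3%. Tested genes held 99.9% of counts. DESeq2 1.42.0, limma 3.58.1 (voom), other scalings, filters, a replicate block and each library left out were alternatives. The scripts were tested on simulated data. CPM used TMM-scaled library sizes, and TPM used merged exon lengths of GENCODE M21, which gave symbols for 51633 identifiers. No pair of libraries was alike within sampling noise (chi-square per degree of freedom 13.8 to 27.1 over pairs). Same-numbered libraries deviated together at a correlation of 0.0696. The members and lists were chosen with earlier results of these data known. In each list the genes named were those passing, the 3 of lowest p, the 3 of highest TPM and, for ligands, those with at least 10 counts in all libraries or at 0. A gene of the immune and blood markers is not reported here.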

Additional observations from a re-analysis of the deposited data

How the results depend on the processing

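The 8 tested receptor genes were fitted under 16 other settings, 128 fits in all, and none passed an adjusted p of 0.05; the lowest was 0.125. Met and Egfr kept a negative and Fgfr1 a positive log2 fold change in all 16. With 1 library left out Met ranged from −0.33 to −0.16 and Egfr from −0.32 to −0.12. In 13 fits a sign turned. Axl was 0.00871 with upper quartile factors, 0.00163 without a filter and 0.00719 with the exon length trend removed, and −0.0646 to 0.0587 with 1 library left out. Pdgfra was 0.0789 with the length trend removed and −0.0630 to 0.0365 with 1 library left out. Erbb2 was −0.0382 and Pdgfrb −0.00276 with the GC trend removed; with 1 library left out they ranged from −0.0807 to 0.118 and from −0.00181 to 0.105. Fgfr3 ranged from −0.865 to 0.346 with 1 library left out. The 3 settings that sum genes sharing exons or remove length or GC trends, and the family shares by other lengths, were chosen after seeing the data. The cause of these turns was not tested. All of the turned values are below the median standard error of 0.133 in size except for Fgfr3, whose 17 to 46 counts per library limit its precision.

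The count of genes passing, 25, moved to 65 by DESeq2, to 11 by limma-voom and to 9 when dispersions were not robust. It was 27 to 224 with 1 library left out, the lone library being assumed to vary like the pair. Leaving out GDF10 replicate 2 gave 224 and GDF10 replicate 1 gave 112; for vehicle replicate 2 it was 44 and for vehicle replicate 1 it was 27. It was 23 with the replicate block. The shared replicate numbers are not shown to pair the libraries, and with the replicate block Met was at −0.24 (edgeR, adjusted p = 0.482).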

Other observations

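Among the adaptors, 2 genes stood apart in 1 library, and are named here because their values were seen. Grb2, the adaptor that links receptors to the RAS exchange factor SOS, had 55.5 and 105 CPM in GDF10 libraries and 54.6 and 55.7 CPM in vehicle libraries, high in GDF10 replicate 2 alone. Akt2, a kinase downstream of PI3-kinase, had 71.0 and 139 CPM in GDF10 libraries and 66.0 and 65.0 CPM in vehicle libraries, with the same library high. Neither passed with all 4 libraries (edgeR, adjusted p = 0.853 and 0.849), and both passed when GDF10 replicate 1 was left out.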
